A study of Chlamydomonas reinhardtii with 16 samples.

Results

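Light-exposed cells of the Chlamydomonas reinhardtii heme oxygenase mutant hmox1 that had been fed biliverdin were compared with light-exposed wild-type cells that had not been fed. The comparison covers the 12030 genes, of 17301 in the deposited table, that stood at 1 RPKM or more in at least 2 of the 4 libraries concerned. RPKM is the number of reads scaled to gene length and library size. Membership says only that a gene was expressed, and the direction of its difference played no part in the choice, but the threshold itself lets in more genes through one group than through the other. Of the members, 9378 reached the threshold in all 4 libraries and 9996 in at least 1 library of each group, while 1971 reached it only in the fed hmox1 libraries and 63 only in the untreated wild-type libraries. The member nearest to the limit had a second-highest value of 1.00049 RPKM and the closest gene outside it 0.999374 RPKM.

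Chlamydomonas reinhardtii is a unicellular green alga that can be grown in darkness on acetate. Per the labels, hmox1 and the wild-type strain 4A+ were grown heterotrophically in the dark on Tris-acetate-phosphate medium, and every culture contained 0.5% methanol. The fed hmox1 cultures contained 0.1 mM biliverdin IXα (BV) and the wild-type cultures of this comparison contained 0 mM. Both were then exposed for 0.5 h to white light at 150 µmol photons per square metre per second. The other 6 groups of the study, each of 2 libraries, are fed hmox1 before light, hmox1 without BV before and after light, wild type with BV before and after light, and wild type without BV before light. The 2 groups of the main comparison differ in both strain and feeding, so within it the contributions of strain and of BV cannot be told apart, and the groups that differ in 1 factor are given beside it. The sources used here do not say how the mutant line was made or how closely 4A+ is related to it. Nor is it stated whether replicate libraries stem from independent cultures, and p-values therefore reflect the spread from library to library, part or all of which may be technical.

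Heme oxygenase opens the ring of heme to give the linear tetrapyrrole biliverdin. In algae and plants a ferredoxin-dependent reductase turns biliverdin into further bilins, which serve in plants as the chromophore of the phytochrome photoreceptors. Chlamydomonas has no phytochrome but keeps a heme oxygenase and a bilin reductase in its plastid, and cells that meet light after growth in the dark change the transcripts of many genes of photosynthesis, pigment synthesis and photoprotection. Feeding BV supplies from outside the product that the mutated enzyme would make.

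Depth was recovered from the steps between RPKM values. The fed hmox1 libraries held 15996038 and 25458577 reads in genes, and the untreated wild-type libraries 23956153 and 10213599, the last being the shallowest of the 16. For a gene of 2 kb, 3 reads correspond to 0.0938 and 0.0589 RPKM in the fed hmox1 libraries and to 0.0626 and 0.147 RPKM in the untreated wild-type libraries. The log2 levels of the 2 libraries of a group had a median SD of 0.0654 in fed hmox1 and 0.0738 in untreated wild type. Light-exposed wild type with BV had the widest spread of the 8 groups, 0.12; it is not in the main comparison, but its spread enters the shared estimate of error. The deposited table carries no gene names and the matched RefSeq table has no symbols, so genes are given by identifier, no function is attached to any of them, and the labels could not be checked against the mutated gene's own transcript.

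After light, most expressed genes stood higher in fed hmox1 than in untreated wild type on the deposited scaling. Of the 12030 members, 7524 (62.5%) were called higher and 1758 (14.6%) lower in fed hmox1, and 2748 were not called (limma, Benjamini-Hochberg adjusted p under 0.05 over all 13972 tested genes). Together the called members were 77.2% of the members, against 76.7% of all tested genes, of which 63.9% were called higher and 12.8% lower, so the members' shares are near those of the whole table. In bulk RNA, a lower transcript level in every cell cannot be told apart from fewer cells with the transcript. The log2 difference, hmox1 with BV minus wild type without BV on log2(RPKM + 1), had a median of 0.46 over the members and lay between -0.75 and 1.45 for the middle of the distribution from its 5th to its 95th percentile. The median standard error of a member was 0.108. Among the 9996 members that reached the threshold in both groups, which could not have entered through 1 group alone, 5576 were called higher and 1700 lower, with a median of 0.34.

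The balance of directions depended on the scaling. Of the called members 81.1% were higher on the deposited scaling. With median-ratio scaling 3488 were called higher and 5272 lower, which is 39.8% higher, and the median difference was -0.13. With quantile scaling 4010 were called higher and 3394 lower, which is 54.2% higher, with a median of 0.05. The deposited values are shares of each library, and which scaling is nearest to transcripts per cell was not tested, so the gene groups below are also given relative to the general shift of 0.46. Counted from that median instead of from 0, 583 called members were higher by 2-fold or more and 943 lower by 2-fold or more. The calls themselves were still tests against 0, and shares over all tested genes are not given for these 2 counts.

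**Figure D1:**
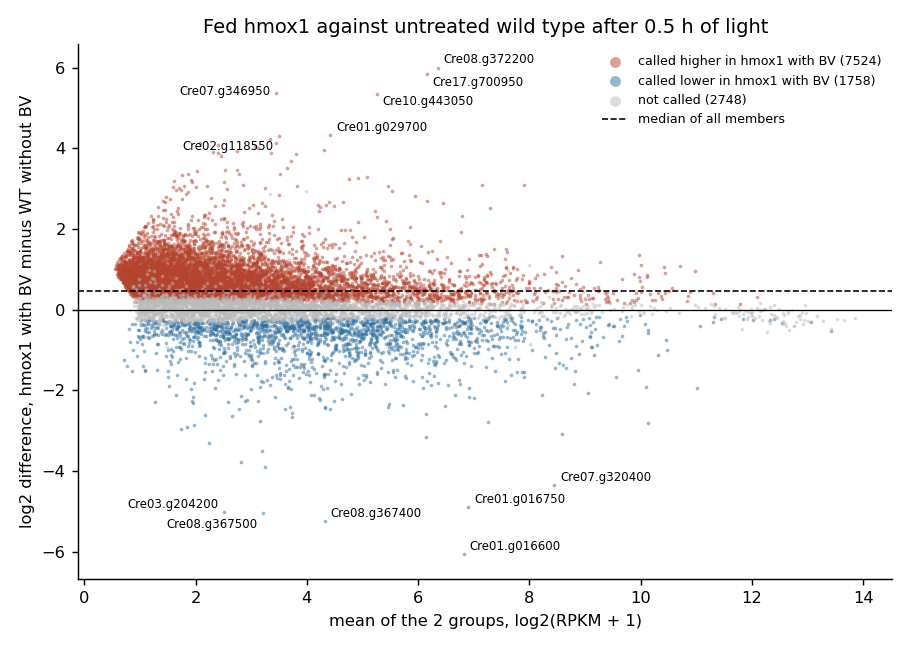
Log2 difference of each of the 12030 members after 0.5 h of light, hmox1 with BV minus wild type without BV on log2(RPKM + 1), against the mean log2 level of the 2 groups (n = 2 libraries each). Red points were called higher in fed hmox1 (7524), blue points lower (1758) and grey points were not called (2748); the dashed line is the median of 0.46, and the 12 labelled genes are those named by rule in the text.

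The counts were also taken by expression level. When members were divided into 4 equal parts by their mean level over all 16 libraries, the lowest part, at 0.24 to 2.64 RPKM, had 2241 genes called higher and 212 lower in fed hmox1, with a median difference of 0.64. The next part, up to 5.8 RPKM, had 2017 higher and 322 lower with a median of 0.56, and the third, up to 16.1 RPKM, had 1847 higher and 470 lower with a median of 0.44. In the highest part 1419 were higher and 754 lower, with a median of 0.17. The lowest part holds 1646 of the 1971 members that passed only through the fed hmox1 libraries, so its counts follow in part from the threshold. Over the members that reached the threshold in both groups, the medians of the 4 parts from low to high were 0.28, 0.49, 0.44 and 0.17, with 617, 1714, 1826 and 1419 called higher and 166, 311, 469 and 754 called lower. In these genes the smallest median was that of the most abundant transcripts, and the lowest part no longer had the largest. Differences of low genes are understated on this scale by the added 1 RPKM.

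Large differences were a minority. By 2-fold or more, 1936 of the 12030 members were called higher and 377 lower in fed hmox1. Of all 13972 tested genes, 1945 (13.9%) were higher and 377 (2.7%) lower by that much. The 1936 include genes that were members only through the fed hmox1 libraries. Among the 9996 members that reached the threshold in both groups, 1176 were higher and 349 lower by 2-fold or more. The split over all members turned with scaling: with median-ratio scaling 669 were higher and 1500 lower by 2-fold or more, and with quantile scaling 514 and 558. By 4-fold or more on the deposited scaling there were 168 higher and 56 lower, against 1.2% and 0.401% of all tested genes, and by 16-fold or more 12 higher and 6 lower, against 0.0859% and 0.0429%. The libraries of the 2 groups did not overlap for 10700 members, 88.9%, where the share among all tested genes was 88.7%. Of these, 8390 were higher and 2310 lower in fed hmox1.

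The 6 identifiers with the largest rise among adequately counted genes, chosen by the rule given in the processing section, ranged from 25.2-fold to 98.9-fold higher in mean RPKM. Cre08.g372200 stood at 611 and 683 RPKM in the fed hmox1 libraries, against 10 and 8.50 RPKM in the untreated wild-type libraries, which is 5.98 ± 0.13 on the log2 scale (estimate ± SE by limma, adjusted p = 1.7e-13). Cre17.g700950 had 524 and 551 RPKM in fed hmox1, against 8.72 and 8.13 RPKM in untreated wild type, 5.84 ± 0.09 on the log2 scale (adjusted p = 1.9e-16). Both fed hmox1 values exceeded both wild-type values by more than an order of magnitude for each of these transcripts. Cre07.g346950 had 64.1 and 74.8 RPKM in fed hmox1, against 0.703 and 0.701 RPKM in untreated wild type, where 57 reads were counted over both libraries, and its log2 difference was 5.37 ± 0.09 (adjusted p = 1.9e-16). Cre10.g443050 had 239 and 246 RPKM in fed hmox1, against 5.63 and 4.5 RPKM in untreated wild type (log2 difference 5.33 ± 0.18, adjusted p = 6e-10). Replicate libraries lay close together for all 4 of these genes.

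Cre01.g029700 had 93.7 and 97.0 RPKM in the fed hmox1 libraries, against 4.14 and 3.43 RPKM in the untreated wild-type libraries (log2 difference 4.34 ± 0.11, limma, adjusted p = 2.8e-14). The sixth, Cre02.g118550, was the least reproducible: it had 36.5 and 60.2 RPKM in fed hmox1, against 2.42 and 0.739 RPKM in untreated wild type, and a log2 difference of 4.3 ± 0.44 (adjusted p = 2.3e-05). The groups still did not overlap.

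For these 6 genes, the remaining light-exposed groups lay between the extremes. Cre08.g372200 averaged 135 RPKM in hmox1 without BV and 277 RPKM in wild type with BV. Cre17.g700950 averaged 80.5 RPKM in hmox1 without BV and 388 RPKM in wild type with BV. Cre07.g346950 averaged 2.97 RPKM in hmox1 without BV and 55.1 RPKM in wild type with BV, and for it the difference with BV was larger than the difference between strains. Side by side, the log2 difference of this gene was 4.15 ± 0.09 for BV in hmox1 (adjusted p = 7.5e-15), 5.04 ± 0.09 for BV in wild type (5.6e-16), 1.22 ± 0.09 for hmox1 against wild type without BV (1.8e-08) and 0.32 ± 0.09 for hmox1 against wild type with BV (0.0049). These contrasts share libraries with one another and with the comparison of fed hmox1 and untreated wild type, so they are not separate evidence. Cre10.g443050 averaged 49.2 RPKM in hmox1 without BV and 123 RPKM in wild type with BV. The same order held for Cre01.g029700, with 18.4 and 62.0 RPKM in those groups, and for Cre02.g118550, with 4.95 and 20.4 RPKM. In each of the 6, hmox1 with BV had the highest mean of the 4 light-exposed groups, wild type with BV the next, hmox1 without BV the third and wild type without BV the lowest. The difference between these 2 middle groups, hmox1 without BV minus wild type with BV, was itself called for all 6, with log2 values from -1.03 ± 0.13 for Cre08.g372200 (limma, adjusted p = 1.6e-05) to -3.82 ± 0.09 for Cre07.g346950 (2.3e-14).

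The 6 identifiers with the largest fall by the same rule formed 2 patterns. Cre01.g016600 had 13.0 and 12.5 RPKM in the fed hmox1 libraries, against 1000 and 849 RPKM in the untreated wild-type libraries, a log2 difference of -6.07 ± 0.47 (limma, adjusted p = 3.3e-06). Cre01.g016750 had 23.0 and 19.0 RPKM in fed hmox1, against 711 and 590 RPKM in untreated wild type (-4.89 ± 0.31, adjusted p = 3.5e-07). Cre07.g320400, a short gene with a recovered length of 148 nt, had 81.9 and 70.9 RPKM in fed hmox1, against 1560 and 1590 RPKM in untreated wild type (-4.35 ± 0.59, adjusted p = 1.5e-04). These were abundant transcripts of light-exposed wild type that stood far lower in both groups with BV: in wild type with BV they averaged 18.5, 18.3 and 90.0 RPKM in the order named, while in hmox1 without BV they averaged 544, 432 and 992 RPKM.

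The adjacent genes Cre08.g367400 and Cre08.g367500 followed that pattern at a lower level. Cre08.g367400 had 2.38 and 2.12 RPKM in fed hmox1, against 122 and 121 RPKM in untreated wild type (log2 difference -5.24 ± 0.13, limma, adjusted p = 2.1e-14). Cre08.g367500 had 0.485 and 0.731 RPKM in fed hmox1, a total of 17 reads, against 49.8 and 54.6 RPKM in untreated wild type (-5.05 ± 0.12, adjusted p = 1.1e-14). Both differed between the strains without BV as well, since hmox1 without BV averaged 40.0 RPKM for Cre08.g367400 (-1.58 ± 0.13 against untreated wild type, adjusted p = 7.9e-08) and 14.1 RPKM for Cre08.g367500 (-1.82 ± 0.12, 5.5e-09). Such neighbours could share reads if they are close copies of each other, and how the authors' counting treated reads with several matches is unknown. For Cre01.g016600, Cre01.g016750 and Cre07.g320400 the difference between hmox1 and wild type without BV was -0.76 ± 0.47 (adjusted p = 0.19), -0.58 ± 0.31 (0.13) and -0.67 ± 0.59 (0.35), and was not called.

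Cre03.g204200 showed the other pattern and set the strains apart. No read was counted for it in either fed hmox1 library, against 30.4 and 32.0 RPKM, 762 reads in all, in untreated wild type. Taking 3 reads over both libraries as the floor, it was at least 308-fold lower in fed hmox1 (limma log2 difference -5.01 ± 0.10, adjusted p = 1.6e-15; the fitted value depends on the pseudocount). It averaged 0.073 RPKM in light-exposed hmox1 without BV and 23.9 RPKM in light-exposed wild type with BV. The 8 hmox1 libraries, light and dark, all lay below every one of the 8 wild-type libraries. BV changed this transcript by -0.10 ± 0.10 in light-exposed hmox1 (adjusted p = 0.44), where it was near 0 in both groups, and by -0.37 ± 0.10 in light-exposed wild type (0.0048).

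**Figure D2:**
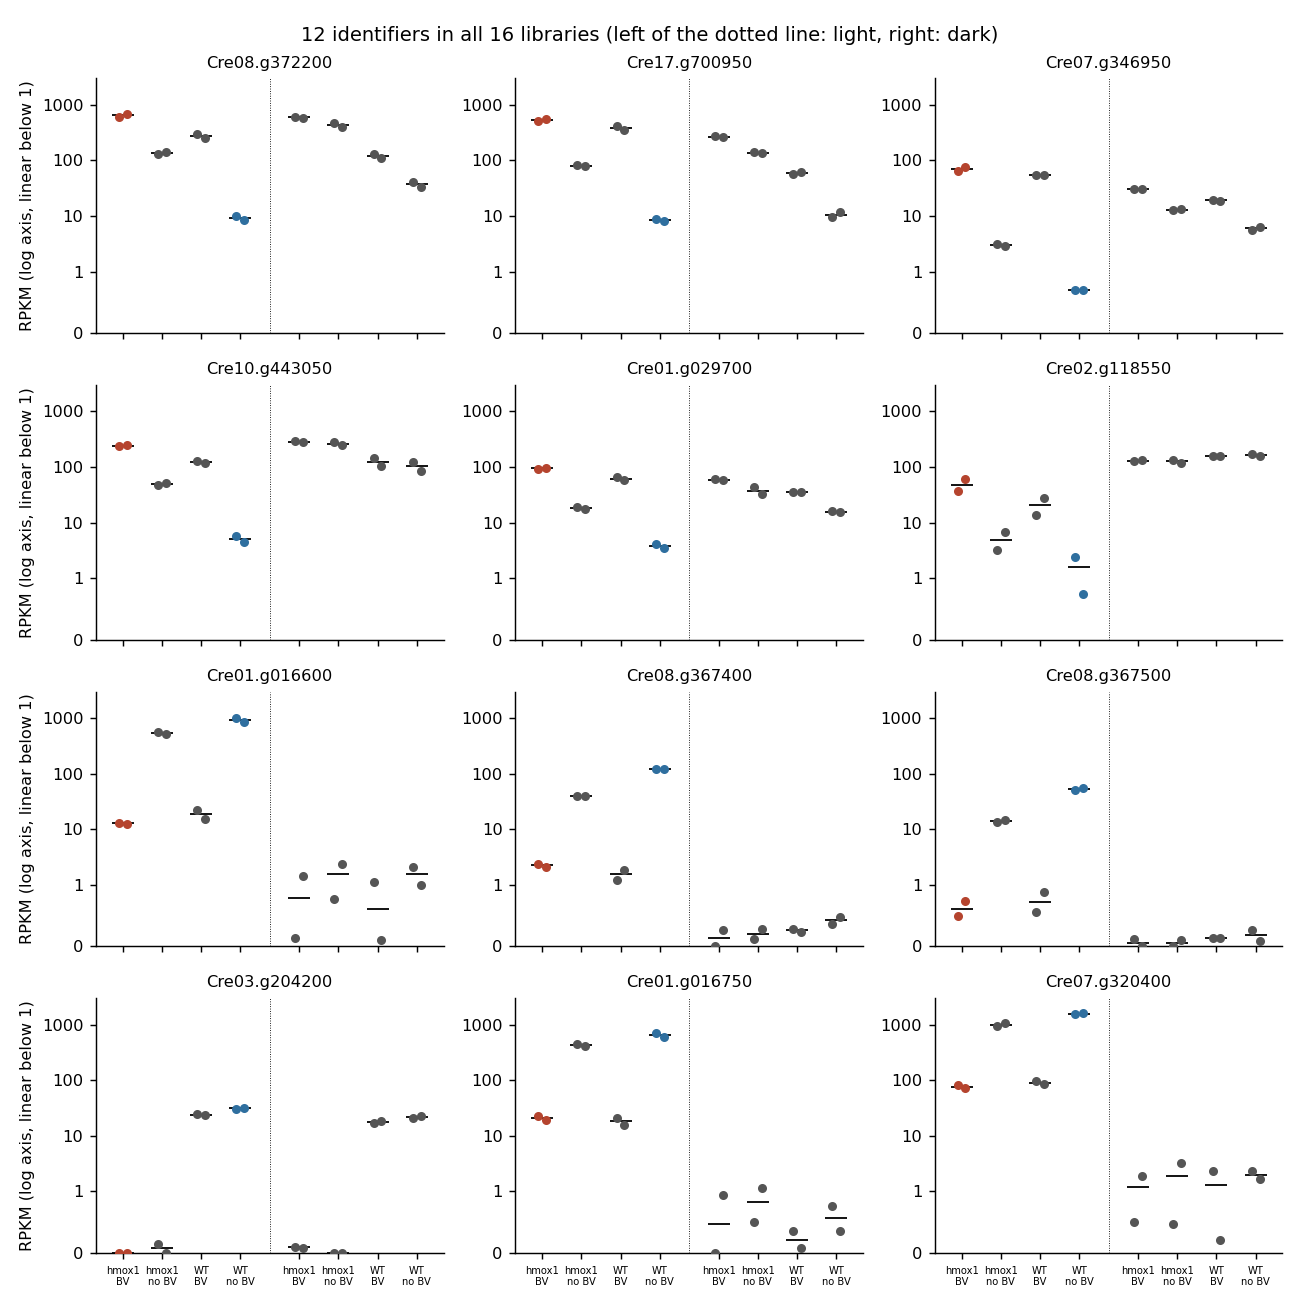
RPKM in each of the 16 libraries of the 12 genes with the largest differences among those that met the naming rule. The axis is logarithmic above 1 RPKM and linear below it. Dots are libraries and short bars the means of 2. Red marks light-exposed hmox1 with BV and blue light-exposed wild type without BV. The 6 upper panels show genes whose highest light-exposed mean is that of fed hmox1, and in 5 of the 6 lower panels both BV-fed groups lie far below both unfed groups after light, while Cre03.g204200 separates the strains in light and dark.

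The same strain and feeding contrast before light was smaller. In the dark 3057 members were called higher and 968 lower in fed hmox1 than in untreated wild type, 33.5% of the members, against 32.9% of all tested genes, of which 23.9% were called higher and 8.93% lower. The median log2 difference over the members was 0.11. By 2-fold or more, 315 members were higher and 89 lower, against 2.51% and 1.03% of all tested genes. With median-ratio scaling 1993 were called higher and 1598 lower in the dark, and with quantile scaling 2363 and 2091, so here the excess of higher calls was smaller but kept its direction. No library is shared between the dark and the light comparison, although the dark and light cells of a group were harvested from cultures handled alike. Of the 7524 members called higher after light, 2279 were also called higher in the dark, which is 30.3% of the light list and 74.6% of the dark list. Over all members, 25.4% were called higher in the dark and 62.5% after light. The 7524 include genes that were members only through the light-exposed fed hmox1 libraries. The genes shared by the light and dark lists were not counted without them. Of the 1758 called lower after light, 267 were also called lower in the dark, 15.2% of the light list and 27.6% of the dark list. Over all members, 8.05% were called lower in the dark and 14.6% after light. Opposite calls were made for 377 members that were higher after light and lower in the dark, and for 341 that were lower after light and higher in the dark. Those 377 were 38.9% of the members lower in the dark, and those 341 were 19.4% of the members lower after light.

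A test of the difference itself, the light difference minus the dark difference, called 7443 members, of which 5708 were more positive after light and 1735 more negative. That is 61.9% of the members, against 61.5% of all tested genes, of which 48.7% were more positive and 12.8% more negative. Among the 9996 members that reached the threshold in both groups after light, 4088 were called more positive and 1684 more negative. The other counts here are over all members, some of which entered only through the light-exposed fed hmox1 libraries. By 2-fold or more, 1298 members were more positive and 498 more negative, against 9.99% and 3.63% of all tested genes, while with median-ratio scaling 457 were more positive and 1483 more negative by that much, and with quantile scaling 403 and 592. The median light minus dark difference over the members was 0.35 on the log2 scale. Here too the split turned with scaling: 2548 were more positive and 4490 more negative with median-ratio scaling, and 2844 and 2564 with quantile scaling.

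For 11 of the 12 genes named for the light comparison, the difference between fed hmox1 and untreated wild type was larger after light by this test, and for 6 of them no difference was called in the dark. The exception was Cre03.g204200, whose -0.64 ± 0.14 (adjusted p = 8.8e-04) follows the wild-type level over the pseudocount because fed hmox1 was at the floor in both conditions, and whose read ratios of at least 308 after light and 244 in the dark (exact 95% interval 67.2 to 2020) do not show a larger difference after light. For Cre08.g367500, 1 read in dark fed hmox1 and 4 in dark untreated wild type gave a ratio of 3.72 (exact 95% interval 0.368 to 183). After light its means were 0.608 and 52.2 RPKM in the same order. The dark interval is too wide for its light minus dark value of -4.89 ± 0.17 to show a larger ratio after light. Cre01.g016600 averaged 0.782 RPKM in dark fed hmox1 and 1.56 RPKM in dark untreated wild type, and its light minus dark difference was -5.48 ± 0.66 (limma, adjusted p = 1.5e-04). The dark levels of Cre08.g367400 were also near the floor, with 3 reads in fed hmox1 and 9 in untreated wild type, and its light minus dark difference was -4.90 ± 0.18 (4.2e-11). These 2 had the most negative light minus dark values under the naming rule. At the other end, Cre02.g118550 was abundant in the dark in both groups, 130 RPKM in fed hmox1 and 166 RPKM in untreated wild type, where the log2 difference of -0.35 ± 0.44 was not called (adjusted p = 0.59), and its light minus dark difference was 4.65 ± 0.62 (2.9e-04).

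Cre10.g424550 behaved like Cre02.g118550. It had 18.0 and 23.4 RPKM in light-exposed fed hmox1, against 1.79 and 0.601 RPKM in light-exposed untreated wild type (3.35 ± 0.32 on the log2 scale by limma, adjusted p = 1.1e-05). In the dark it had 74.6 and 76.3 RPKM in fed hmox1, against 127 and 121 RPKM in untreated wild type (-0.71 ± 0.32, adjusted p = 0.13), and the light minus dark difference was 4.06 ± 0.46 (7.6e-05). For both genes every light-exposed library lay below every dark library of its own arm. Light changed Cre10.g424550 by -1.83 ± 0.32 in fed hmox1 (adjusted p = 8.9e-04) and by -5.88 ± 0.32 in untreated wild type (8e-08), and Cre02.g118550 by -1.45 ± 0.44 in fed hmox1 (0.019) and by -6.09 ± 0.44 in untreated wild type (1.1e-06).

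Among the largest dark differences were some genes that differed with strain, with or without a further difference with BV. Cre17.g700950 had 273 and 265 RPKM in dark fed hmox1, against 9.42 and 11.7 RPKM in dark untreated wild type (log2 difference 4.55 ± 0.09, limma, adjusted p = 1.5e-14). It averaged 138 RPKM in dark hmox1 without BV and 60.0 RPKM in dark wild type with BV, and in the dark it rose both with strain without BV (3.59 ± 0.09, 2.1e-13) and with BV in wild type (2.40 ± 0.09, 1.1e-10). Cre07.g339300 had 18.2 and 18.8 RPKM in dark fed hmox1, against 0.0825 and 0.0288 RPKM in dark untreated wild type, where 4 reads were counted (4.2 ± 0.10, adjusted p = 2.1e-14). After light this transcript was much less abundant in fed hmox1, 2.88 and 2.89 RPKM, against 0 and 0.139 RPKM in untreated wild type. The 252 reads in fed hmox1 and 3 in untreated wild type give a ratio of 69.2 with an exact 95% interval of 23.4 to 338. The light minus dark difference of -2.34 ± 0.13 was called (limma, adjusted p = 3.5e-09), but it depends on the added 1 RPKM. Whether the ratio also differed between dark and light was not tested. Hmox1 without BV averaged 16.7 RPKM in the dark and 1.53 RPKM after light, and wild type with BV 0.125 RPKM in the dark and 0.0406 RPKM after light.

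Cre03.g204200 was low in hmox1 in the dark as well, with 2 reads in fed hmox1, against 524 in untreated wild type, where it had 20.7 and 22.3 RPKM. The ratio of untreated wild type to fed hmox1 was 244, with an exact 95% interval of 67.2 to 2020. Cre03.g154050 had 1.73 and 1.81 RPKM in dark fed hmox1, against 27.4 and 29.0 RPKM in dark untreated wild type (log2 difference -3.40 ± 0.11, limma, adjusted p = 1.7e-12). After light it had 0.417 and 0.589 RPKM in fed hmox1, against 5.43 and 5.63 RPKM in untreated wild type (-2.12 ± 0.11, 9.8e-11). The groups did not overlap for this gene in either condition.

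To describe which genes carried the difference, members were sorted by their response to light in the 2 arms that are not part of the comparison, wild type with BV and hmox1 without BV. Averaged over those arms, 1068 members (8.88%) were raised by light 2-fold or more and 1744 (14.5%) were lowered 2-fold or more, by the same limma test, against 7.66% and 16.6% of all tested genes. Light-raised genes were lower in fed hmox1 than in untreated wild type: 96 were called higher and 770 lower, with a median log2 difference of -0.54, which is 1.00 below the median of all members. Light-lowered genes were higher in fed hmox1: 1630 were called higher and 20 lower, with a median of 0.96, which is 0.50 above that of all members. The other 9218 members had 5798 called higher and 968 lower, with a median of 0.43. For the same genes of the light-raised and light-lowered classes, the medians were -1.24 and 0.56 with median-ratio scaling, -0.64 and 0.41 with quantile scaling and -0.57 and 1.49 with a pseudocount of 0.1. When the classes were formed anew under each setting they held other numbers of genes, and their medians were -1.03 and 0.69, -0.65 and 0.52, and -0.52 and 1.42. Among the light-lowered genes 743 were members only through the fed hmox1 libraries and had to differ. In the 995 that reached the threshold in both groups, 890 were called higher and 14 lower, with a median of 0.91, and in the 1052 light-raised genes that did so 91 were called higher and 759 lower, with a median of -0.54.

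Both classes moved less with light in fed hmox1 than in untreated wild type. The light-raised class had a median light effect of 1.15 on the log2 scale in fed hmox1, against 1.88 in untreated wild type. The light-lowered class had a median light effect of -0.84 in fed hmox1, against -1.76 in untreated wild type. Single libraries set against the dark mean of their own arm gave 1.14 and 1.16 in fed hmox1 and 1.87 and 1.93 in untreated wild type for the raised class, and -0.83 and -0.85 in fed hmox1 and -1.74 and -1.79 in untreated wild type for the lowered class. The light minus dark difference was called more negative for 820 and more positive for 39 of the 1068 light-raised genes, and more positive for 1575 and more negative for 10 of the 1744 light-lowered genes. Among the 1052 light-raised genes that reached the threshold in both groups, 811 were called more negative and 36 more positive. Among the 995 such light-lowered genes, 881 were called more positive and 2 more negative. Over those that reached the threshold in both groups, the median light effect was 1.15 in fed hmox1 and 1.89 in untreated wild type for the raised class and -0.84 in fed hmox1 and -1.76 in untreated wild type for the lowered class. Over all members and on the deposited scaling, light raised 2838 and lowered 4226 in fed hmox1, against 2904 raised and 7070 lowered in untreated wild type. The called share was 58.7% of the members in fed hmox1, against 61.4% of all tested genes, and 82.9% of the members in untreated wild type, against 84% of all tested genes.

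**Figure D3:**
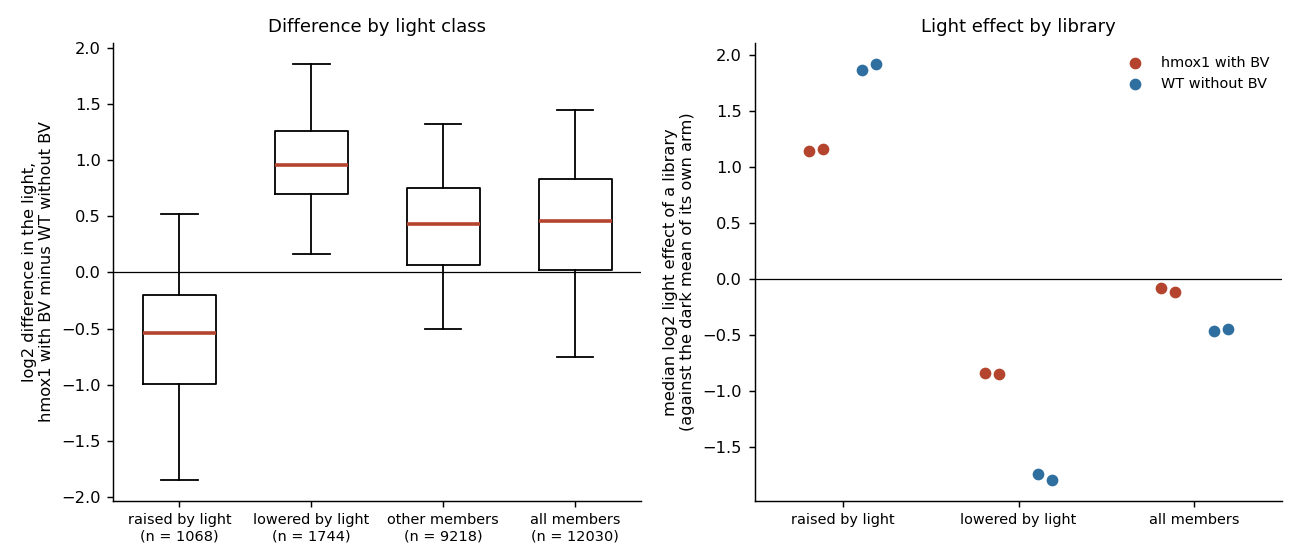
Left, log2 difference after light (hmox1 with BV minus wild type without BV) for members raised or lowered 2-fold or more by light in the other 2 arms, for other members and for all members; red lines are medians (-0.54, 0.96, 0.43 and 0.46), boxes the middle 50% and whiskers the 5th to 95th percentile of genes. Right, median log2 light effect of each library against the dark mean of its own arm; for both classes the 2 fed hmox1 libraries (red) lie nearer to 0 than the 2 untreated wild-type libraries (blue).

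The genes past 2-fold can be followed through all groups. The 1936 members that were higher by 2-fold or more had median levels of 5.02 and 4.98 RPKM in the fed hmox1 libraries, against 1.27 and 1.22 RPKM in the untreated wild-type libraries, values that chose them and carry no test. In libraries that had no part in the choice, their medians after light were 3.25 and 3.38 RPKM in hmox1 without BV and 2.31 and 2.64 RPKM in wild type with BV. In the dark they were 7.23 and 7.29 RPKM in fed hmox1 and 5.40 and 5.49 RPKM in untreated wild type. Of these 1936 genes, 783 (40.4%) belonged to the class lowered by light, which holds 14.5% of all members, and 17 to the class raised by light. The 783 include genes that were members only through the fed hmox1 libraries and had to differ. Among the 9996 members that reached the threshold in both groups, 1176 were higher by 2-fold or more. Of those, 418 belonged to the class lowered by light, which holds 995 of the 9996.

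The 377 members that were lower by 2-fold or more had medians of 10.6 and 10.4 RPKM in fed hmox1, against 32.8 and 33.2 RPKM in untreated wild type, again by choice. After light their medians were 23.9 and 24.5 RPKM in hmox1 without BV and 11.5 and 14.1 RPKM in wild type with BV, so that among these genes wild type with BV lay nearer to fed hmox1 than hmox1 without BV did. In the dark the medians were 4.34 and 4.60 RPKM in fed hmox1 and 4.60 and 5.09 RPKM in untreated wild type. Of the 377, 266 (70.6%) belonged to the class raised by light, which holds 8.88% of all members, 6 to the class lowered by light and 105 to neither.

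**Figure D4:**
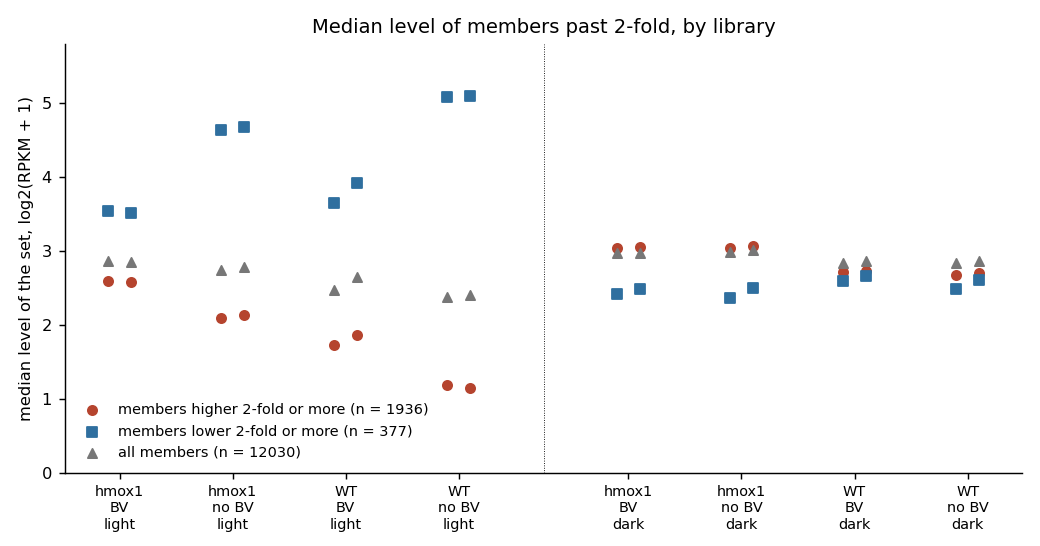
Median level, log2(RPKM + 1), of the 1936 members higher by 2-fold or more (red circles), the 377 members lower by 2-fold or more (blue squares) and all 12030 members (grey triangles) in each of the 16 libraries. Light-exposed hmox1 with BV and light-exposed wild type without BV chose the 2 sets; the other 12 libraries did not, and among the light-exposed ones the lower set lies lowest in the 2 groups with BV.

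Genes grouped by what separated the strains before light kept part of that order. The 3400 members called higher in hmox1 than in wild type in the dark without BV, in libraries outside the light comparison, had 2520 called higher and 382 lower in light-exposed fed hmox1, with a median log2 difference of 0.66. For the same 3400 genes the median was 0.05 with median-ratio and 0.31 with quantile scaling. The strain contrast that set this class called 35.8% of the members and 35% of all tested genes. For the 297 of them that were higher by 2-fold or more in the dark, 263 were called higher and 21 lower, with a median of 1.55. The 903 members lower in hmox1 in the dark had 335 called higher and 273 lower after light with a median of 0.05, and the median of the same genes was -0.56 with median-ratio and -0.26 with quantile scaling. In the 97 of them that were lower by 2-fold or more in the dark, 18 were called higher and 63 lower, with a median of -0.39. All these counts include genes that were members only through the fed hmox1 libraries, which lean towards higher calls by the threshold. For these classes no counts were taken over members at the threshold in both groups, so part of the kept order may follow from the threshold.

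The response of dark wild-type cells to BV was smaller. There, 381 members were called higher and 231 lower with BV, 5.09% of the members, against 5.47% of all tested genes. The 381 had 240 called higher and 73 lower in light-exposed fed hmox1, with a median of 0.54, beside 0.46 for all members. For the same 381 genes 152 were called higher and 160 lower with median-ratio scaling, with a median of 0.0018, and the median was 0.15 with quantile scaling. The 231 had 125 called higher and 53 lower, with a median of 0.21, and the same genes had a median of -0.51 with median-ratio scaling and 0.14 with quantile scaling. Genes that were members only through the fed hmox1 libraries are included in both classes, and no counts without them were taken.

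The single steps that lead from untreated wild type to fed hmox1 share libraries with the comparison and are given side by side, on the deposited scaling only. Without BV, light-exposed hmox1 had 6603 members called higher and 1051 lower than light-exposed wild type, with a median log2 difference of 0.31 and 63.6% of the members called, against 61.2% of all tested genes. With BV, hmox1 had 6256 higher and 1224 lower than wild type, with a median of 0.29 and 62.2% called, against 61.4% of all tested genes. BV in light-exposed hmox1 gave 3205 higher and 1512 lower, with a median of 0.12 and 39.2% called, against 37.5% of all tested genes. BV in light-exposed wild type gave 4211 higher and 1780 lower, with a median of 0.14 and 49.8% called, against 45.6% of all tested genes.

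The reverse pairing, light-exposed hmox1 without BV against light-exposed wild type with BV, shares no library with the comparison of fed hmox1 and untreated wild type, and was chosen after its values were seen. It was computed on the deposited scaling only. Of the 12030 members, 4940 were called higher in unfed hmox1, 1753 lower, and 5337 were not called, with a median log2 difference of 0.19; the called members were 55.6%, against 51.8% of all tested genes. Of the 1936 genes higher by 2-fold or more in fed hmox1 than in untreated wild type, 975 were called higher in unfed hmox1 than in fed wild type and 271 lower, with a median of 0.29. Of the 377 genes lower by 2-fold or more in fed hmox1, 263 were called higher in unfed hmox1 than in fed wild type and 62 lower, with a median of 0.73. These 263 genes were higher in the unfed group in either pairing.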

How the data were processed

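RNA-seq libraries (single-end reads of 100 nt, per the labels' protocols) formed 8 groups of 2, taken from the sample labels. The authors deposited 1 table of RPKM for 17301 genes. Its header does not name the unit, which was taken from the values. Bowtie was used, per the submitters' processing notes. The sources used here give no version, genome build, gene models, counter or use of strand, so overlapping, antisense and duplicated genes may share reads.

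Whole reads were recovered for 16851 of the 16852 genes above 0, within a tolerance of 0.1 reads (99.87% of values within 0.01 reads). Floors and intervals from these reads reflect counting error alone. The 13972 genes that reached 1 RPKM in 2 or more of the 16 libraries were tested on log2(RPKM + 1), computed from the deposited values, with limma 3.58.1 in R 4.3.3. The model had a mean for each of the 8 groups, was fitted to the 16 libraries together (residual degrees of freedom 8), and used robust moderation with a mean trend. Genes at Benjamini-Hochberg adjusted p under 0.05 were called. Both steps were tested on simulated data.

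Named genes were called members without overlap between groups, at 5 RPKM or more in the higher group, with 20 or more reads in each of its libraries and a RefSeq locus tag, by size of difference: 6 per direction after light, and 2 per direction for the dark and for light minus dark. Identifiers were matched to locus tags of Chlamydomonas_reinhardtii_v5.5 for 12666 genes (73.2%), 9299 of them members. As 0 of the 17742 RefSeq genes have a symbol or product text, lists by gene function could not be formed. The members, classes and lists were chosen with earlier results of these data known. Alternatives tried were other scalings, pseudocounts, filters, tests, a replicate block and leaving out libraries. Counts over members at the threshold in both groups, and classes kept the same under each scaling, were added after seeing the data.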

Additional observations from a re-analysis of the deposited data

Results flagged for a closer look

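The difference between fed hmox1 and untreated wild type was itself different after light than in the dark for 7443 members by the test of that difference (limma, adjusted p under 0.05). On the log2 scale, light minus dark, it was 1.99 for Cre08.g372200, 1.28 for Cre17.g700950, 3.19 for Cre07.g346950, 3.83 for Cre10.g443050, 2.49 for Cre01.g029700, 4.65 for Cre02.g118550 and 4.06 for Cre10.g424550, all of them more positive after light. It was -5.48 for Cre01.g016600, -4.90 for Cre08.g367400, -4.89 for Cre08.g367500, -4.73 for Cre01.g016750 and -3.84 for Cre07.g320400, all more negative after light and with dark means of at most 1.99 RPKM in both groups. For Cre03.g204200 it was -0.64, with fed hmox1 at the floor in both conditions, so that this value does not show a larger difference after light. Nor does the value of Cre08.g367500 show a larger ratio after light, with 1 read in dark fed hmox1 and 4 in dark untreated wild type. For Cre07.g339300 the light minus dark value was -2.34 and for Cre03.g154050 1.28, and on log2(RPKM + 1) the difference of both was larger in the dark. Both values depend on the added 1 RPKM. Untreated wild type had 4 reads of Cre07.g339300 in the dark and 3 after light, and fed hmox1 had 67 and 26 reads of Cre03.g154050. Whether the ratios also differed between dark and light was not tested.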

How the results depend on the processing

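For the 15 named genes, all 276 recomputed values kept their direction and their side of the threshold. These values cover only the 20 results chosen by the naming rule, 6 per direction after light and 2 per direction for the dark and for light minus dark. The other dark and light minus dark values of the named genes, some of them given above, were not recomputed. Of the 69 recomputed counts, 64 stayed within 1.5 times. Fewer members were called higher with a filter of 5 RPKM, 4981 of the 8509 members then tested. With median-ratio scaling 3488 were called higher and 5272 lower, and with quantile scaling 4010 and 3394, against 7524 and 1758; the cause was not tested. Calls for light minus dark numbered 7443, against 5408 with quantile scaling. Counts past 2-fold turned with scaling (669 higher and 1500 lower with median-ratio, 514 and 558 with quantile; for light minus dark 457 and 1483, and 403 and 592) and rose at a lower pseudocount: 3656 higher and 449 lower at 0.1 and 3765 and 453 with voom on recovered reads, against 1936 and 377, and 2983 and 3098 for the light minus dark difference, against 1298. Leaving out each library in turn gave 8458 to 8693 called members after light (6893 to 7138 higher, 1533 to 1652 lower), 2790 to 3103 in the dark and 6462 to 6843 for light minus dark; the lone library is then assumed to vary like the other groups.

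The labels do not say that replicate numbers pair the libraries: same-numbered replicate differences of fed hmox1 and untreated wild type correlated at 0.00014 after light and -0.091 in the dark, and over all 28 pairs of groups the range was -0.15 to 0.27. With a replicate block 9443 members were called after light, 4322 in the dark and 7716 for light minus dark. Depth limits genes at few reads, since 3 reads of a 2-kb gene are worth 0.147 RPKM in the shallowest library.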

Other observations

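In the RefSeq gene order, 6252 neighbouring pairs had both genes among the members. A neighbour of a gene higher by 2-fold or more was itself higher by 2-fold or more in 22.8% of cases, where 15.7% of the genes in such pairs are. For genes lower by 2-fold or more the share was 9.8%, where 3.26% of the genes in such pairs are. Both genes were higher in 224 pairs, both lower in 20, and 1 was higher and the other lower in 50. No test was run on these shares. The genes higher by 2-fold or more include some that were members only through the fed hmox1 libraries, and the shares were not taken without them.

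The longest run of adjacent genes higher by 2-fold or more held 5 genes, Cre05.g238850, Cre05.g238900, Cre05.g238935, Cre05.g238950 and Cre05.g239000, whose log2 differences lay between 1.06 and 1.22. Cre05.g239000 averaged 1.52 RPKM in fed hmox1 and 0.0839 RPKM in untreated wild type, while Cre05.g238900 averaged 6.85 RPKM in fed hmox1 and 2.5 RPKM in untreated wild type. Cre05.g239000 was thus a member only through the fed hmox1 libraries. The longest run of lower genes held 3. Of these, Cre13.g569350 averaged 39.0 RPKM in fed hmox1 and 87.5 RPKM in untreated wild type (-1.15 ± 0.13 on the log2 scale, estimate ± SE by limma, adjusted p = 9.8e-07), Cre13.g569400 averaged 20.9 and 66.2 RPKM in the same order (-1.60 ± 0.19, 6.8e-06) and Cre13.g569450 averaged 2.36 and 6.82 RPKM (-1.22 ± 0.10, 3.9e-08).

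The genes on either side of Cre07.g320400 went opposite ways. Cre07.g320450 averaged 421 RPKM in fed hmox1 and 2940 RPKM in untreated wild type (-2.80 ± 0.56 on the log2 scale by limma, adjusted p = 0.0017), and Cre07.g320350 averaged 6.54 RPKM in fed hmox1 and 0.748 RPKM in untreated wild type (2.12 ± 0.12, 4.8e-10). Beside Cre08.g372200, Cre08.g372250 averaged 32.5 RPKM in fed hmox1 and 62.7 RPKM in untreated wild type (-0.93 ± 0.09, 2.7e-07), and the genes beside Cre10.g443050 went opposite ways: Cre10.g443000 averaged 1.72 RPKM in fed hmox1 and 0.546 RPKM in untreated wild type (0.82 ± 0.12, 1.2e-05), and Cre10.g443100 averaged 7.15 RPKM in fed hmox1 and 14.7 RPKM in untreated wild type (-0.94 ± 0.13, 5.9e-06).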
